A study of Mus musculus with 3 samples.

Results

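Growing hair follicles hold immune attack at bay, and 8 genes known for that role are described here in the skin of mice with and without alopecia areata. They were chosen by name for their known role, with earlier results of these data known: the transforming growth factor beta ligands Tgfb1, Tgfb2 and Tgfb3, the cytokine genes Mif and Il10, the surface protein gene Cd200, the hormone precursor gene Pomc and the enzyme gene Ido1, 8 of the 32285 genes counted. Single-cell RNA sequencing had been run on 3 droplet libraries of dorsal skin from 25-week-old female C3H/HeN mice, with 1 library for each group and 7 to 8 mice pooled in each of the first 2 groups by the study's methods. The Neg group was vehicle-treated and unaffected. The AA group was the alopecia areata model, in which mice receive cultured skin-draining lymph node cells from affected donors. The AA+Ab group was the same model given an antibody that neutralizes CXCL12, a chemokine, and how many mice its library pooled was not given in the sources used here. With 1 library per group there is no replicate error and no test between groups. The intervals below are exact 95% intervals that cover counting error only.

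The lower follicle in its growth phase keeps few major histocompatibility complex class I molecules on its surface and produces proteins that quiet T cells and natural killer cells, a state called immune privilege. Its collapse, with interferon-gamma from T cells acting on the follicle, is the widely held account of alopecia areata. The TGF-beta ligands restrain T cells and also drive the follicle toward regression, MIF inhibits natural killer cells, CD200 gives an inhibitory signal to cells that carry its receptor, IL-10 and the POMC product alpha-MSH dampen antigen presentation, and IDO1 breaks down the tryptophan that T cells need.

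The libraries held 6965 (Neg), 10879 (AA) and 10507 (AA+Ab) barcodes, of which 6582, 10433 and 9832 had at most 10% mitochondrial unique molecular identifiers (UMIs, single counted transcripts) and at least 200 genes. After removal of 367, 908 and 826 predicted doublets, 6215, 9525 and 9006 cells were kept, with a median of 13264, 10874 and 10979 UMIs. Pairs of libraries shared 14 to 19 barcodes among kept cells. Clustering without the 8 genes or their pathway genes gave 30 clusters. All keratinocytes together numbered 5407, 8585 and 7998, and all immune cells 319, 568 and 593. Clusters 4, 11, 15, 16, 18 and 26 did not meet the marker rule and are called by number. Cluster 29 carried the endothelial markers Pecam1, Cdh5, Kdr, Tie1 and Egfl7 but was led by the keratin genes Krt18 and Krt8, and it is called by number too. Values for a class are given only where a library held at least 20 of its cells, unless the number of cells is stated. Levels are UMIs per 1000000 UMIs of the class (CPM).

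Summed over all kept cells, none of the 8 genes was higher than 1.5-fold in AA over Neg with an interval leaving out 1, and 1, Ido1, was lower. By the same rule 6.18% of all genes with at least 30 UMIs were higher and 6.50% were lower. Ido1 itself, with 29 UMIs in the pair, was under that minimum. For AA+Ab over Neg, 0 of the 8 genes were higher and 2, Tgfb3 and Ido1, were lower, against 3.31% and 6.92% of all genes. Against AA, AA+Ab had 0 genes higher and 1, Tgfb3, was lower, against 4.50% and 8.78%. The 3 contrasts share libraries, so each library enters 2 of them. The median log2 ratio of AA to Neg over the 7 measured genes was 0.05, beside -0.05 over all genes.

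**Figure D1:**
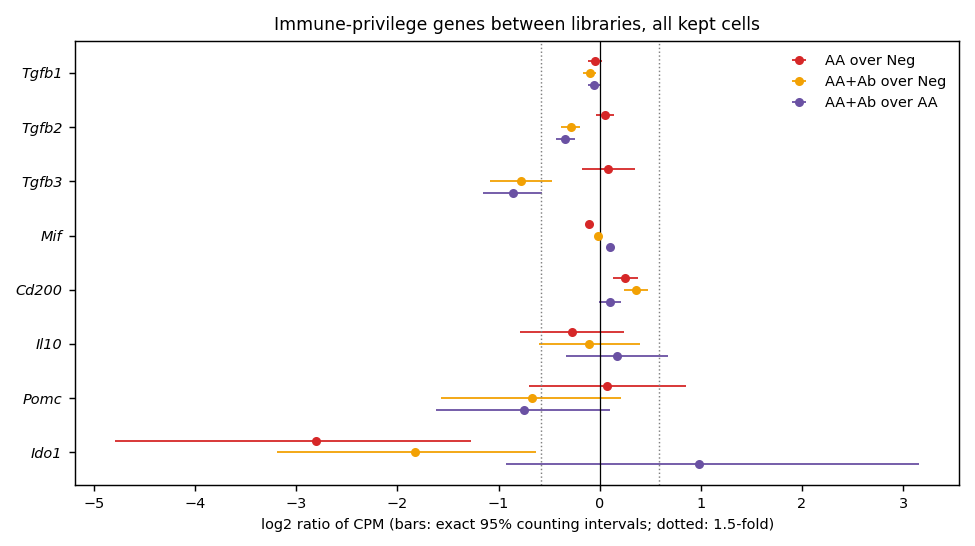
Log2 ratio of CPM between libraries over all kept cells (x axis) for each of the 8 genes (y axis), in AA over Neg, AA+Ab over Neg and AA+Ab over AA, with exact 95% counting intervals and dotted lines at 1.5-fold. Tgfb1, Tgfb2, Mif and Cd200 lie inside the dotted lines in all 3 contrasts, Tgfb3 lies left of them in both contrasts of AA+Ab, and Ido1 lies left of them in both contrasts against Neg with wide intervals.

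Promoter sequence is shown for the 3 genes with the clearest class patterns and for 2 interferon-gamma response genes that were higher in AA, Irf1 and Gbp2, so that their start regions can be compared. RefSeq promoters on GRCm38.p6 matched 5 of the 8 genes: Tgfb1, Tgfb2, Mif, Cd200 and Pomc. Tgfb3, Il10 and Ido1 had no entry. The 120 bases before each transcription start are printed 5′ to 3′ on the strand of the gene, and capitals mark matches, on either strand, to the interferon-gamma activated site (GAS, TTCNNNGAA), the core of the interferon-stimulated response element (ISRE, which reads GAAA, any 2 bases and GAAA) or the GC box (GGGCGG). The mice were C3H and the sequence is that of the reference genome.
Tgfb1, chr7:25686882-25687001, plus strand: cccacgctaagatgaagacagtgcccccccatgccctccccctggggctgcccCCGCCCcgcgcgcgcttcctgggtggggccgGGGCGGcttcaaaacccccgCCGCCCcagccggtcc
Tgfb2, chr1:186705990-186706109, minus strand: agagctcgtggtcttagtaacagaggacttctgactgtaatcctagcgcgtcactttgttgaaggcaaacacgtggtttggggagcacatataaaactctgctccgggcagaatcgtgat
Cd200, chr16:45409054-45409173, minus strand: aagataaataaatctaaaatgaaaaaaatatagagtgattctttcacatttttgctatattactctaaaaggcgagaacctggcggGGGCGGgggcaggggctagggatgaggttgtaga
Irf1, chr11:53769894-53770013, plus strand: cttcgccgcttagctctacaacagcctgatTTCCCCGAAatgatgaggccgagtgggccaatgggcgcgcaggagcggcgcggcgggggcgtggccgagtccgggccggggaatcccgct
Gbp2, chr3:142620543-142620662, plus strand: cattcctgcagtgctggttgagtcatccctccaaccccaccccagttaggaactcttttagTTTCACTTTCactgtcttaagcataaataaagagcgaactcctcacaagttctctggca
In the 250 bases before the start, GAS or the ISRE core was found in 0 of the 5 matched guardian genes and in 5 of the 9 matched genes of the interferon-gamma list. Of all 32851 promoters searched, 7.02% held GAS, 2.98% the ISRE core and 32.7% the GC box. Tgfb1 held 5 GC boxes in that window, at 16, 36, 67, 123 and 164 bases before the start. The Cd200 window had 1, at 34 bases. The Irf1 start shown, 1 of 2 in the table, had a GAS match 90 bases before it, the other Irf1 start had neither interferon motif, and Gbp2 had an ISRE core match 59 bases before it. The motifs can overlap one another, but no matches printed here do. A match is a description of letters and says nothing of a factor's binding.

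Tgfb1, on chromosome 7 (25687002-25705077, plus strand, GRCm38.p6), encodes the main TGF-beta ligand of immune cells. Over all kept cells its level was 32.7 CPM in Neg, 31.7 in AA and 30.5 in AA+Ab, and AA over Neg was 0.968 (0.924-1.01). It was highest by class in T cells, with 183, 230 and 197 CPM from 107, 341 and 183 UMIs. Dendritic cells and macrophages held 167, 177 and 128 CPM, so T cells led in each library, with counting intervals that overlapped between the 2 classes in Neg and AA and not in AA+Ab. Gamma-delta T cells held 75.6, 60.6 and 56.8 CPM, which was less than either.

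Among keratinocytes Tgfb1 was highest in cycling cells, at 56.7 CPM in Neg, 48.1 in AA and 53.6 in AA+Ab. The hair matrix, whose dividing cells build the shaft, held 39.3, 40.5 and 35.6 CPM. The cortex and cuticle held 39.3, 32.2 and 32.9 CPM, and the bulge and outer root sheath 34.7, 31.2 and 30.4. In Neg the matrix and the cortex and cuticle did not differ, while in AA the matrix (37.8-43.3) and the bulge and outer root sheath (28.1-34.5) had intervals that did not overlap. The matrix gave 26.1%, 22.2% and 26.9% of all Tgfb1 UMIs from 13.1%, 8.96% and 12.4% of the cells. Melanocytes were low and alike in the 3 libraries, at 15.7, 15.7 and 16.8 CPM.

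Among the keratinocyte classes the ratio of Tgfb1 between AA and Neg was farthest from 1 in the suprabasal epidermis, the layers above the basal cells. It held 16.7 CPM in Neg (233 UMIs), 7.00 in AA (97 UMIs) and 9.55 in AA+Ab (138 UMIs). AA over Neg was 0.420 (0.328-0.534) and AA+Ab over Neg 0.573 (0.461-0.710), so AA+Ab lay between the others, with AA+Ab over AA at 1.36 (1.05-1.79). Both suprabasal clusters had the same order of libraries: cluster 3 held 16.9, 7.85 and 9.86 CPM and cluster 14 held 16.4, 4.26 and 8.97. The median UMIs per cell had that order too, at 14624.5, 12547 and 13014.5 in cluster 3 and 34586, 15242 and 19041 in cluster 14. The part of depth was not tested beyond thinning, where the log2 ratio of AA to Neg went from -1.252 to -1.915 for Tgfb1. In this class 2 of the 8 genes, Tgfb1 and Tgfb2, were lower in AA than in Neg by more than 1.5-fold and 1, Cd200, was higher, against 10.9% lower and 3.85% higher of all genes. With cells thinned to equal depth the Tgfb1 difference kept its direction, and those of Tgfb2 and Cd200 turned. Cd200 had 7 and 18 UMIs in this pair, under the minimum of 30 for the shares of all genes.

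Smaller differences of Tgfb1 between AA and Neg were seen in other classes. The basal epidermis held 32.4 CPM in Neg, 24.6 in AA and 28.6 in AA+Ab (AA over Neg 0.760, 0.684-0.844). The upper hair follicle held 23.5, 15.8 and 18.5 CPM (0.674, 0.496-0.907). In both, as in the suprabasal cells, Neg was highest and AA lowest. The inner root sheath, the mould of the growing shaft, ran the other way with 20.4, 28.9 and 20.6 CPM (1.42, 1.11-1.82), and 1 AA cell there carried 26 Tgfb1 UMIs. At resolution 0.4 the log2 ratio of the inner root sheath dropped from 0.50 to 0.13, with an interval that held 0, and that of the upper hair follicle went from -0.57 to -0.05 with each cell counted at most once. Over all immune cells the level was 131 CPM in Neg, 186 in AA and 127 in AA+Ab (AA over Neg 1.43, 1.22-1.68, and AA+Ab over AA 0.679, 0.587-0.784). T cells made up 101 of the 319, 353 of the 568 and 219 of the 593 immune cells, and within T cells AA over Neg was 1.25 (1.01-1.57).

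**Figure D2:**
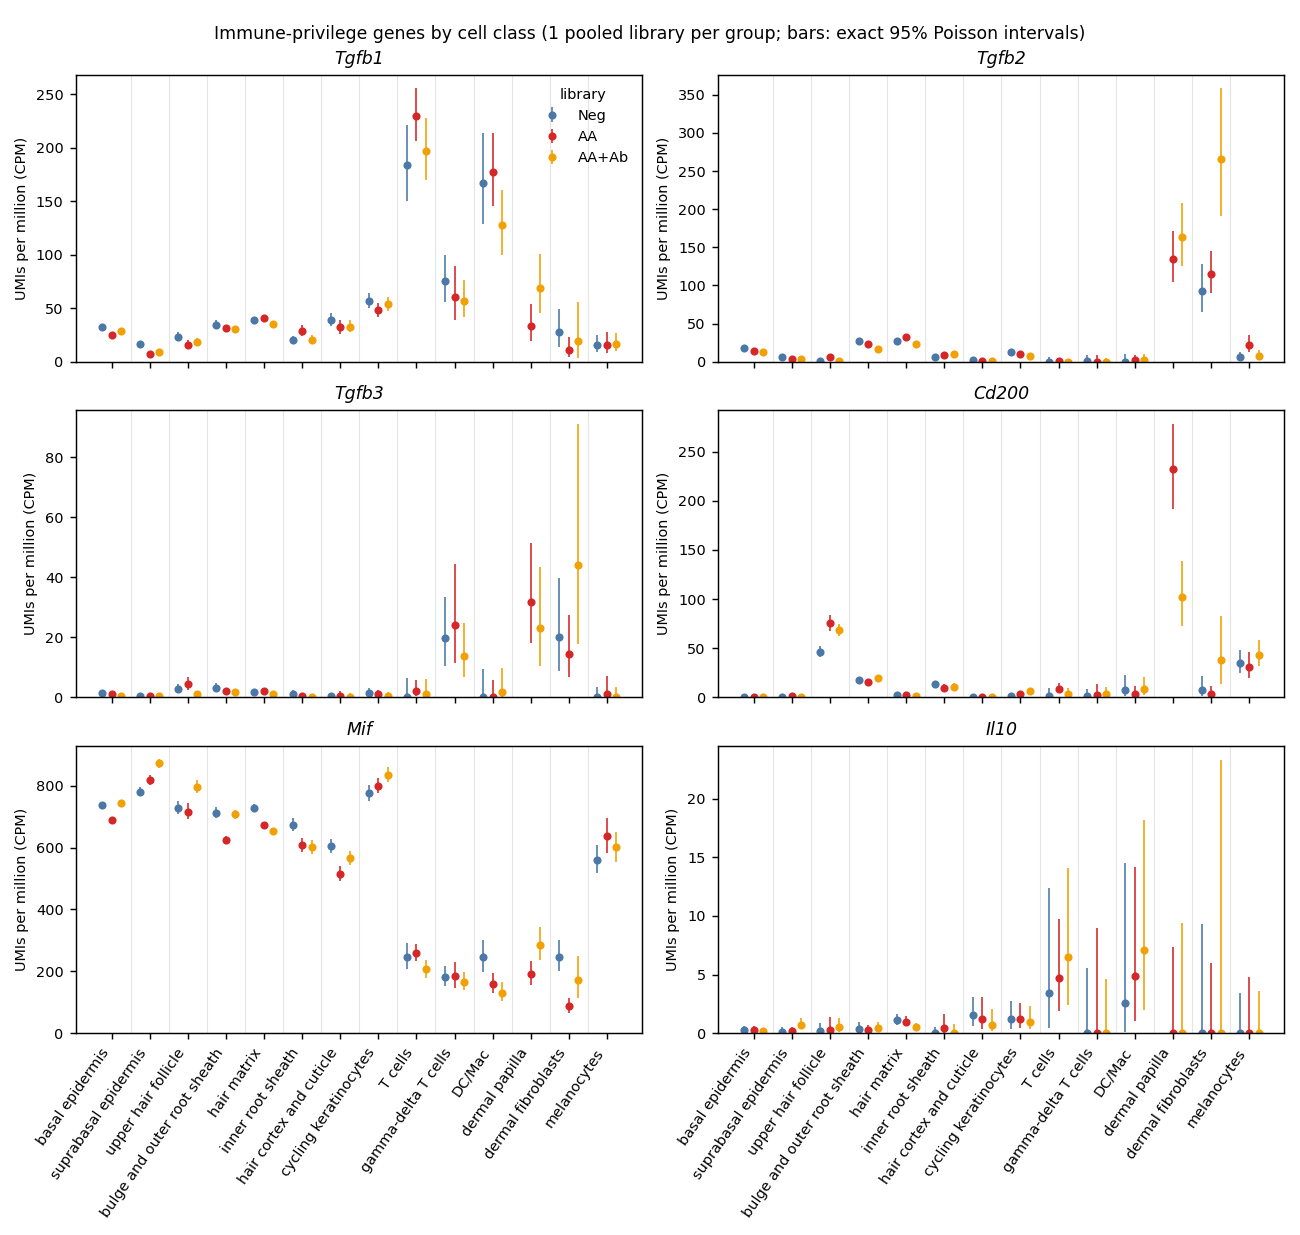
Level of 6 of the genes in CPM (y axis) by cell class (x axis) and library, with exact 95% Poisson intervals, for 14 classes, where the library held at least 20 cells. Among the classes drawn, Tgfb1 is highest in T cells and in dendritic cells and macrophages, Tgfb2 in dermal papilla and fibroblasts, Cd200 in dermal papilla and upper hair follicle, and Mif is higher in every keratinocyte class drawn than in the immune and dermal classes.

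Tgfb2 (chromosome 1, 186622792-186705989, minus strand), a ligand tied to follicle formation and regression, overlaps the antisense gene Gm29491, which was counted apart. Its level over all kept cells was 16.9 CPM in Neg, 17.5 in AA and 13.8 in AA+Ab. AA+Ab was thus the lowest of the libraries, at 0.819 (0.766-0.876) of Neg and 0.790 (0.740-0.843) of AA. Among the classes called by name Tgfb2 was highest in the dermis. The dermal papilla, the signalling centre at the base of the follicle, held 135 CPM in AA and 163 in AA+Ab, and the 19 such cells of Neg gave 82.4. Fibroblasts held 93.1, 115 and 265 CPM, from only 37, 71 and 42 UMIs, and AA+Ab over AA was 2.31. With predicted doublets kept in, the log2 of that ratio moved from 1.21 to 0.01. In Neg, the 28 cells of cluster 29 gave 2.80% of the Tgfb2 UMIs, beside 2.07% from the 42 fibroblasts, and 1 cell of the cluster held 29 UMIs.

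Within the follicle epithelium Tgfb2 varied by compartment. Cluster 13 of the outer root sheath, led by Lgr5 and Fgf5, held 60.2, 59.3 and 47.5 CPM. Cluster 20, led by the bulge keratin gene Krt24, held 36.5, 48.9 and 81.5. Cluster 2, the largest of the 3 in the same class, held only 5.53, 4.76 and 2.49, far below the others in each library. Over the class as a whole the values were 27.6, 22.6 and 16.3 CPM, and AA+Ab over Neg was 0.589 (0.491-0.706). Its log2 ratio, -0.76 as reported, was -0.46 with the mean of single cells, inside 1.5-fold. Cluster 13 was 148 of the 718 cells of the class in Neg, 180 of 1233 in AA and 221 of 1491 in AA+Ab. The direction in cluster 20 was opposite to that of the class.

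In the hair matrix Tgfb2 was at 27.4 CPM in Neg, 32.7 in AA and 23.5 in AA+Ab, from 630, 672 and 655 UMIs. The ratio of AA to Neg was 1.19 (1.07-1.33), a difference outside counting error but under 1.5-fold. Both matrix clusters showed AA as the highest library, with 35.1, 45.3 and 32.2 CPM in cluster 5 and 14.7, 15.8 and 10.4 in cluster 6. The matrix gave 35.3%, 32.4% and 39.4% of all Tgfb2 UMIs, the largest share of any class. The basal epidermis held 17.7, 14.1 and 13.2 CPM and the suprabasal epidermis 6.01, 3.03 and 3.88, where AA over Neg was 0.504 (0.340-0.739).

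The upper hair follicle class was named from Krt79, Krt17, Cst6, Defb6, Gata6 and Nebl. It held little Tgfb2 in Neg and AA+Ab, with 8 and 9 UMIs (1.24 and 1.17 CPM). AA held 26 UMIs there (6.33 CPM), and AA over Neg was 5.09 (2.24-13.0). Together with Cd200, Tgfb2 made 2 of the 8 genes higher in AA than in Neg in this class, with 0 lower, against 8.50% higher and 6.20% lower of all genes. With the mean of single cells the log2 ratio of Tgfb2 was 1.69 instead of 2.35, and Cd200 no longer passed. Immune cells were almost without Tgfb2, with 1, 2 and 2 UMIs in Neg, AA and AA+Ab. Melanocytes held 6.48, 22.3 and 7.89 CPM, with AA again the highest.

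Tgfb3 (chromosome 12, 86056745-86079041, minus strand) encodes the third ligand and overlaps Ttll5 and Gm48008 on the other strand, so reads of these genes can be told apart only by strand. Its counts were low, with 229 UMIs in Neg, 272 in AA and 152 in AA+Ab, or 2.16, 2.29 and 1.26 CPM. AA and Neg were close, with a ratio of 1.06 (0.888-1.27). AA+Ab was the low library, at 0.585 (0.473-0.721) of Neg and 0.550 (0.448-0.674) of AA. The call did not hold in either contrast with cells thinned to equal depth, nor in AA+Ab over AA with the mean of single cells or with the class shares of AA. Of the Neg UMIs of Tgfb3, 22 came from the 28 cells of cluster 29.

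The lower Tgfb3 of AA+Ab was also found inside the keratinocytes, where the levels were 1.78, 1.99 and 0.971 CPM from 180, 226 and 112 UMIs, and AA+Ab over AA was 0.488 (0.385-0.615). In these cells 2 of the 8 genes, Tgfb3 and Pomc, were lower in AA+Ab than in AA by more than 1.5-fold, against 8.24% of all genes. The basal epidermis had 33, 27 and 14 UMIs and the hair matrix 43, 43 and 28, with AA+Ab over AA at 0.482 (0.288-0.793) in the matrix. There Tgfb3 was the 1 gene of the 8 that was lower, against 7.76% of all genes. In AA+Ab over Neg, 3 of the 8 genes were lower in the matrix, Tgfb3, Il10 and Pomc, and 0 were higher. Of all genes 8.64% were lower in that contrast. Pomc had too few UMIs in this pair to count as measured. The suprabasal epidermis did not show the difference of Tgfb3, at 0.572, 0.505 and 0.484 CPM. In the bulge and outer root sheath Tgfb3 did not pass the rule in AA+Ab over AA. Cluster 11, counted with the keratinocytes, gave 3.06%, 19.1% and 9.21% of all Tgfb3 UMIs, from 99, 313 and 145 cells. The part of this cluster in the keratinocyte ratio was not tested.

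Among immune cells most Tgfb3 UMIs were in gamma-delta T cells, which held 13 UMIs in Neg, 10 in AA and 11 in AA+Ab (19.7, 24.2 and 13.9 CPM). The other T cells, more numerous in AA and AA+Ab, had 0, 3 and 1 UMIs, and dendritic cells and macrophages 0, 0 and 1. Fibroblasts held 20.1, 14.5 and 44.2 CPM, and the dermal papilla 31.7 in AA and 23 in AA+Ab. Sebaceous cells, counted in AA and AA+Ab alone, held 11.3 and 11.2 CPM.

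Cd200 (chromosome 16, 45382135-45409053, minus strand) encodes a surface glycoprotein known to mark bulge cells in human skin. Its level over all kept cells was 8.98 CPM in Neg, 10.7 in AA and 11.5 in AA+Ab. Both model libraries were above Neg, at 1.19 (1.10-1.30) and 1.28 (1.18-1.39), and both ratios were under 1.5-fold. It was high in the dermal papilla, with 232 CPM in AA (117 UMIs), 102 in AA+Ab (40 UMIs) and 198 in the 19 cells of Neg. AA+Ab over AA was 0.440 (0.299-0.635), and with fewer, larger clusters (resolution 0.4) the log2 ratio shrank to -0.42.

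Among the keratinocyte classes called by name, the upper hair follicle gave the largest share of Cd200 UMIs, at 31.5%, 24.4% and 37.8%. The Cd200 level there was 46.7 CPM in Neg (300 UMIs), 75.5 in AA (310 UMIs) and 68.3 in AA+Ab (524 UMIs). AA over Neg was 1.62 (1.38-1.90) and AA+Ab over Neg 1.46 (1.27-1.69). These cells had a median of 20426, 11051 and 12508 UMIs, so the deepest library was the one with the lowest Cd200. The part of depth was not tested beyond thinning to equal depth, where the log2 ratio of AA to Neg was 1.20. The direction was the same under every alternative run for this class, but the log2 ratio of AA to Neg, 0.69 as reported, was 0.44 with the mean of single cells, which ends the 1.5-fold call, and 1.31 with each cell counted at most once. That of AA+Ab to Neg, 0.55 as reported, was 1.33 after thinning. Cluster 11, led by Krt6a, held more than the upper hair follicle in each library, at 64.8, 86.1 and 71.4 CPM, with AA again the highest. It gave 8.19%, 25.3% and 8.38% of the Cd200 UMIs. Sebaceous cells gave 7.09% in AA and 3.1% in AA+Ab, from 52 and 32 cells.

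The bulge and outer root sheath held 17.4, 15.4 and 19.6 CPM of Cd200, with the low-Tgfb2 cluster 2 at 23.3, 18.4 and 24.6 and the high-Tgfb2 cluster 13 at 9.34, 6.91 and 6.19. The inner root sheath held 13.4, 9.94 and 10.9 CPM. The hair matrix, where the privileged bulb cells lie, held only 2.30, 2.62 and 1.98. The basal epidermis was near 0, with Cd200 UMIs in 8 of 1886, 7 of 2524 and 6 of 2608 cells. These basal cells had a median of 12082, 10324 and 10621 UMIs, and the part of free RNA in so low a share was not tested. In cycling keratinocytes the counts were 7, 16 and 34, and AA+Ab over Neg was 4.07 (1.78-10.9), but the log2 of this ratio dropped from 2.03 to 0.46 when doublets were kept in.

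Immune cells had 8, 16 and 12 Cd200 UMIs in all. Outside the epithelium it was found in satellite cells of muscle, with 186 CPM in AA and 276 in AA+Ab, and in melanocytes, with 35.2, 31.4 and 43.4. In Neg, the 28 cells of cluster 29 held 133 of the 952 UMIs. The interferon-led cluster 26, which had 2, 125 and 9 cells and was led by Iigp1 and Gbp2b, had Cd200 in 0 of its 125 AA cells, which allows up to 2.04 CPM (3 counts).

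**Figure D3:**
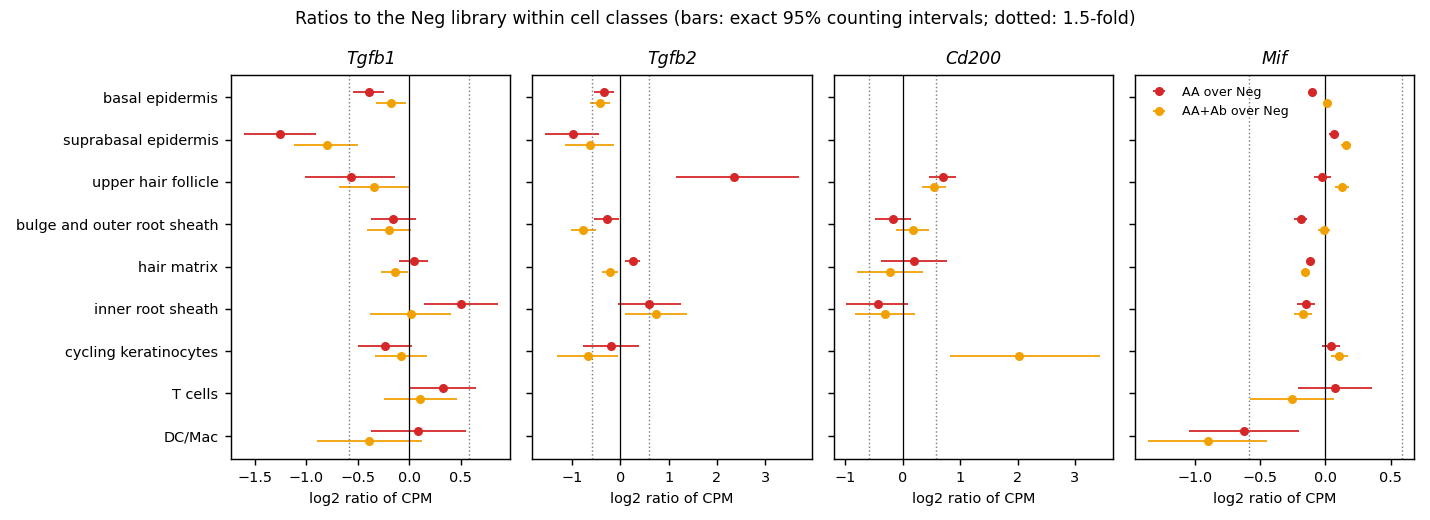
Log2 ratio of CPM in AA over Neg and in AA+Ab over Neg (x axis) by cell class (y axis) for Tgfb1, Tgfb2, Cd200 and Mif, with exact 95% counting intervals. Tgfb1 lies left of 0 in the suprabasal and basal epidermis and the upper hair follicle in AA, Cd200 lies right of 0 in the upper hair follicle in both, and Mif stays near 0 in the keratinocyte classes.

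Mif (chromosome 10, 75859353-75860240, minus strand) encodes a cytokine that nearly every cell type makes. It has processed pseudogene copies that can share reads with it, so its values are uncertain to that extent. It was found in 92.1% of kept cells in Neg, 90.1% in AA and 89.9% in AA+Ab, with 702, 651 and 696 CPM. AA over Neg was 0.927 (0.918-0.936). The interval left out 1 while the ratio was well inside the 1.5-fold rule, and the direction turned when each cell was counted at most once.

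The keratinocyte classes called by name lay in a narrow range of Mif. The suprabasal epidermis held 781, 818 and 872 CPM and cycling cells 775, 799 and 835, the highest values among the epidermal and follicle classes. Basal cells held 738, 688 and 744, the upper hair follicle 728, 716 and 797, and the bulge and outer root sheath 712, 625 and 707. The matrix held 728, 673 and 654, the inner root sheath 674, 607 and 600, and the cortex and cuticle 606, 516 and 565 CPM. The classes of the shaft and its sheath were thus at the low end in every library, and none of these values differed between libraries by 1.5-fold. The interferon-led cluster 26 lay above them at 924 CPM in its 125 AA cells, and the Krt6a-led cluster 11 held 809, 513 and 742 CPM. Cluster 16, counted with the keratinocytes, had few UMIs per cell (median 3696, 3092 and 2875). It gave 0.023%, 0.144% and 0.072% of the Mif UMIs from 0.483%, 2.68% and 1.36% of kept cells.

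Immune cells held less Mif than keratinocytes in each library, at 220, 222 and 164 CPM against 718, 667 and 714. T cells held 247, 260 and 207 CPM and gamma-delta T cells 183, 184 and 167. Dendritic cells and macrophages held 245, 160 and 131 CPM (AA over Neg 0.650, 0.485-0.871), a direction that turned under 3 alternatives. Fibroblasts held 247, 87.2 and 171 CPM, and AA over Neg was 0.354 (0.249-0.498), a log2 ratio of -1.50 that was -0.87 with doublets kept and -0.21 with each cell counted at most once. Melanocytes, at 561, 636 and 600, were closer to the keratinocytes.

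Il10, Pomc and Ido1 were near the limit of detection. Il10 (chromosome 1, 131019845-131024974, plus strand) had 69 UMIs in Neg, 64 in AA and 73 in AA+Ab, or 0.651, 0.540 and 0.606 CPM, and AA over Neg was 0.829 (0.581-1.18). Most of them, 60, 54 and 56, were in keratinocytes, and immune cells held 4, 10 and 17. By CPM the order was different, since T cells held 3.43, 4.72 and 6.46 CPM (2, 7 and 6 UMIs) and the hair matrix 1.09, 0.972 and 0.539 (25, 20 and 15 UMIs). Monocytes and neutrophils of AA+Ab held 31.7 CPM, from 7 UMIs in 3 cells. Gamma-delta T cells and dermal cells had 0 Il10 UMIs in all 3 libraries, where 3 counts would be 3.78 to 7.27 CPM in gamma-delta T cells. By the 1.5-fold rule Il10 was lower in AA+Ab than in Neg in the hair matrix. In the suprabasal epidermis it was higher in AA+Ab than in either other library. That class gave 2.90% of the Il10 UMIs in Neg, 3.12% in AA and 13.7% in AA+Ab, too few to count as measured.

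Pomc (chromosome 12, 3954951-3960642, plus strand) had 28, 33 and 20 UMIs, in 23, 29 and 18 cells. AA over Neg was 1.05, and AA+Ab over AA 0.597 (0.325-1.07). Keratinocytes gave 18, 26 and 9 of them, and there AA+Ab over AA was 0.341 (0.141-0.750). The hair matrix gave 35.7% of the Pomc UMIs in Neg, 21.2% in AA and 15% in AA+Ab. Pomc was lower there in AA+Ab than in Neg by the 1.5-fold rule, on too few UMIs to count as measured. T cells held 5 UMIs in each library, or 8.57, 3.37 and 5.38 CPM. Melanocytes, the target cells of its product alpha-MSH, held 2, 1 and 4 UMIs.

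Ido1 (chromosome 8, 24584136-24597009, minus strand) had 25 UMIs in Neg, 4 in AA and 8 in AA+Ab, in 14, 4 and 4 cells. AA over Neg was 0.143 (0.0362-0.414) and AA+Ab over Neg 0.282 (0.110-0.645). The Neg count rested on few cells: 15 UMIs came from 4 of 814 hair matrix cells, and the cells with the most held 7, 4 and 3. In AA and AA+Ab the matrix had 0 UMIs, which allows up to 0.146 and 0.108 CPM (3 counts). UMIs of 1 cell are not separate events, so these intervals are too narrow for the cells. Ido1, known to be switched on by interferon-gamma in many cells, had 0 UMIs in the immune classes of each library and in the 125 AA cells of cluster 26.

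The receptors and the machinery around the TGF-beta ligands were followed in the same cells. Of 5 measured TGF-beta receptor genes 1 was higher in AA than in Neg by the 1.5-fold rule: Tgfbr2, the receptor that binds the ligand first, with 80.3, 130 and 63.4 CPM. Of 11 storage and activation genes 1 was higher, Thbs1, an activator of the latent ligand, with 267, 427 and 185 CPM, and 1 was lower, Ltbp2. Smurf1, which tags SMAD and receptor proteins for breakdown, was the 1 of 9 SMAD genes that was higher, with 34.6, 52.6 and 29.8 CPM. Of 9 target genes 1 was higher, Ldlrad4, an inhibitor of the pathway that the pathway itself induces, with 37.5, 64.2 and 35.8 CPM, and 1 was lower, Ltbp2 again. Each count stands against 6.18% higher and 6.50% lower of all genes, so 1 gene in lists this short is near the background. The medians of these lists were 0.23, 0.28, 0.20 and 0.27 on the log2 scale, beside -0.05 over all genes.

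The same lists in AA+Ab over AA had 0 genes higher and 1 of 5, 3 of 11, 2 of 9 and 2 of 9 lower, against 4.50% higher and 8.78% lower of all genes. The storage genes that were lower were Ltbp2, Thbs1 and Itgb6, the last an integrin subunit that frees TGF-beta from its latent complex, at 57.3, 81.4 and 32.2 CPM. Smad3, which carries the signal to the nucleus, was at 35.1, 49.8 and 24.8. These values moved with the share of 1 cluster, whose part in them was not tested. Cluster 4, with Itgb6, Ptgs2 and Krt16 among its leading genes, was 5.62% of kept cells in Neg, 12.1% in AA and 3.39% in AA+Ab. It held Itgb6 at 436, 377 and 290 CPM, against 90.0, 57.3 and 55.1 in the basal epidermis. Thbs1 was at 1553, 1687 and 1170 CPM in cluster 4 and at 516, 455 and 373 in basal cells, and Tgfbr2 at 322, 380 and 264 in cluster 4. Tgfb2 was at 25.4, 20.6 and 13.4 in cluster 4. Since Itgb6 is among the leading genes of the cluster, its level there is a description.

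Within T cells, the class with the most Tgfb1 per UMI, TGF-beta target genes were higher in AA. Of 4 measured targets 3 were higher than in Neg by the rule, against 13.3% of all genes in T cells. Smad7, which blocks the receptor, was at 194 CPM in Neg, 507 in AA and 291 in AA+Ab. Pmepa1, another inhibitor that the pathway induces, was at 60, 164 and 78.6 CPM, and Ldlrad4 at 285, 434 and 266. In each, AA was the highest library. SMAD genes were higher in 5 of 8, with Smad7 counted in both lists, and receptors in 2 of 3, with Tgfbr2 at 206, 335 and 219 CPM. In AA+Ab over AA, 3 of 5 targets were lower and 0 higher, against 8.47% lower and 5.43% higher of all genes in T cells. In the hair matrix Smad7 was at 109, 116 and 95.1 CPM and Tgfbr2 at 16.5, 17.2 and 9.95, so AA and Neg were close there.

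The partners of the other guardians were measured in the same way, against 6.18% of all genes higher and 6.50% lower in AA over Neg. For MIF, 2 of 7 genes of a list of receptors, binding partners and the homologue Ddt were higher in AA than in Neg, Cd74 at 66.4, 146 and 70.1 CPM and Cd44 at 233, 423 and 221, and Cxcr2 was lower at 0.934, 0.481 and 1.25. Cd74 also serves class II antigen presentation, and in keratinocytes it was at 15.2, 68.4 and 17.2 CPM. For CD200, 1 of 3 measured genes was higher, its receptor Cd200r1, with 74, 168 and 84 UMIs. Within T cells, however, Cd200r1 was at 66.9, 62.7 and 47.4 CPM, and in dendritic cells and macrophages at 65.3, 96.6 and 49.7, so AA did not stand above Neg in T cells, of which there were more.

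Single genes were higher in the next lists, near that share. For IL-10 signalling 1 of 8 genes was higher in AA, Bcl3, at 16.9, 33.9 and 18.2 CPM. For melanocortin signalling 1 of 7 was higher, Mc5r, a receptor of sebaceous cells, with 53, 119 and 77 UMIs. The sebaceous gland class had 11, 52 and 32 cells, and the part of cell numbers in the Mc5r counts was not tested. Mc1r, the receptor for alpha-MSH on melanocytes, was at 255, 287 and 373 CPM in those cells. None of the 9 kynurenine genes passed the rule in AA over Neg, and Ido2, a relative of Ido1, was higher in AA+Ab over AA with 22, 24 and 64 UMIs.

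Of 14 other inhibitory genes of the skin, 5 were higher in AA than in Neg and 2 were lower, against 6.18% and 6.50% of all genes. Cd274, which encodes PD-L1, was at 3.75, 10.1 and 6.89 CPM, and its relative Pdcd1lg2 had 25, 91 and 65 UMIs. Fasl, the Fas ligand of cytotoxic cells, had 39, 121 and 44 UMIs. Calca, one of the lower genes, had 561, 37 and 26 UMIs, of which 442 came from 1 cell of cluster 29 in Neg. In keratinocytes Cd274 was at 1.74, 5.97 and 2.13 CPM, where 4.55% of all genes were higher in AA than in Neg.

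The interferon-gamma list, chosen with earlier results of these data known, stood beside the guardians for comparison. Of its 12 measured genes 10 were higher in AA than in Neg and 0 lower, with a median log2 ratio of 1.10. Of all genes 6.18% were higher and 6.50% lower. Iigp1, an interferon-induced GTPase, was at 0.858, 53.4 and 4.39 CPM, and the T-cell chemokine Cxcl9 at 0.924, 20.8 and 1.94. Ifng itself was at 0.443, 6.05 and 2.04 CPM. The genes whose promoters are printed above, Irf1 and Gbp2, were at 39.0, 76.6 and 65.5 and at 3.53, 16.9 and 5.31 CPM. In keratinocytes alone 10 of 12 were higher as well, against 4.55% of all genes. Over all kept cells, 5 of 12 were higher in AA+Ab over Neg, against 3.31% of all genes. In AA+Ab over AA 8 of 12 were lower, against 8.78%.

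Major histocompatibility complex class I presentation, which is low in the privileged bulb, had 3 of 9 genes higher in AA than in Neg over all kept cells, against 6.18% of all genes. These were the immunoproteasome subunit genes Psmb8 (114, 183 and 121 CPM) and Psmb9 (66.0, 106 and 72.7 CPM) and their regulator Nlrc5 (69.2, 108 and 74.1 CPM). In the hair matrix all 9 of the 9 genes were higher in AA than in Neg, with a median log2 ratio of 1.02, against 2.20% of all genes. All 9 were lower in AA+Ab than in AA, against 7.76% of all genes. H2-K1, a heavy chain of the complex, was at 86.0, 161 and 71.3 CPM there, and its partner chain B2m at 78.3, 159 and 71.8. Psmb8 was at 4.86, 16.6 and 4.35 CPM and the interferon-response gene Irf1 at 31.5, 48.8 and 24.7. AA stood above both other libraries in each. The 8 T-cell markers summed to 9.47 CPM in the matrix of Neg, 8.40 in AA and 7.69 in AA+Ab. Most of these UMIs were of Trbc2, with 165 of 218, 113 of 173 and 148 of 214. Cd3e (12, 16 and 19 UMIs), Cd3g, Trac, Cd2 and Cd8a (0, 3 and 1 UMIs) had a higher CPM in AA than in Neg. Cd3d and Cd4, like Trbc2, had a lower one. The part of T-cell RNA in the matrix values was not tested. In the same matrix cells none of the 8 guardians passed the 1.5-fold rule in either direction in AA over Neg, where 2.20% of all genes were higher and 3.37% lower. Tgfb2 differed by less than 1.5-fold, as given above, and no ratio could be had for Ido1, at 15 UMIs in Neg and 0 in AA.

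**Figure D4:**
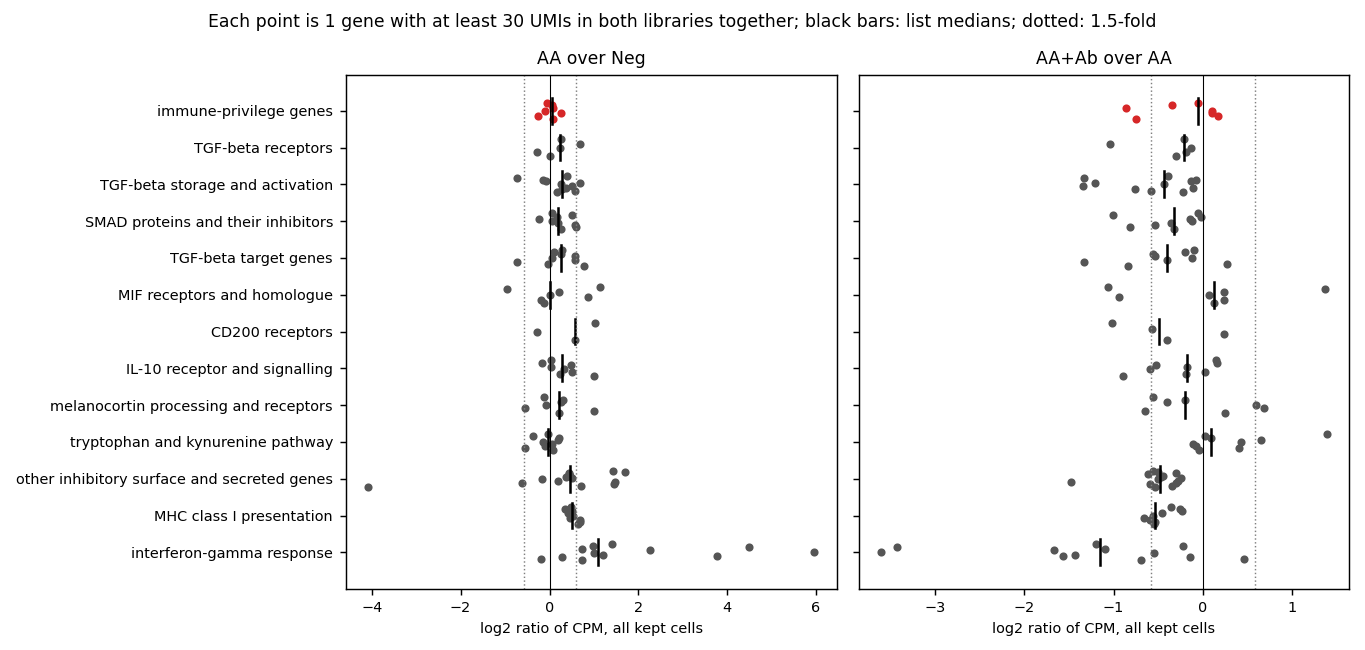
Log2 ratio of CPM over all kept cells (x axis) for each measured gene of the 8 guardians and of 12 pathway lists (y axis), in AA over Neg and in AA+Ab over AA, with black bars at the medians. The interferon-gamma list has its median at 1.10 in AA over Neg and -1.15 in AA+Ab over AA, while the median of the guardians is 0.05 and -0.05.

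The genes whose levels were most like each guardian over the 51 class and library groups were taken by Pearson's r of log2(CPM + 1), as a description, since the groups share libraries and cell types. Tgfb1 was closest to Ly75 and Cklf (r of 0.815 each) and to Tnf (0.806). Tgfb2 was closest to Sdc2 (0.863), Serpinh1 (0.853) and Col4a1 (0.821), and Tgfb3 to Pdgfrb (0.817), Slc4a4 (0.796) and Islr (0.793). Mif was closest to Atpif1 (0.887), Fdft1 (0.886) and Hmgn1 (0.876). Cd200 had the weakest closest gene, Inhbb (0.715), followed by Pcsk5 (0.680) and Ikzf4 (0.672). Il10 was closest to Mirt1 (0.909), Rab11fip1 (0.889) and Pglyrp1 (0.870), on sparse counts. Pomc and Ido1 had under 100 UMIs and were not ranked.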

How the data were processed

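Droplet 3′ libraries were made from dorsal skin, 1 per group. The authors deposited matrices of unnormalized UMI counts. The submitters' processing notes name Cell Ranger 7.2.0, FastQC 0.11.7 and mm10. As in the study's methods, a barcode was kept when it had at least 200 genes and its mitochondrial share was at most 10%. Doublets were scored against simulated ones (2 per cell, 20 principal components), and the highest scores were removed at 0.8% per 1000 barcodes, where the study used DoubletFinder. Clustering used Seurat 5.3.0 (R 4.3.3; 2000 variable genes without the guardians, the pathway genes and mitochondrial genes, 30 principal components, resolution 0.8). Clusters were named from fixed markers, with naming thresholds set after the clusters were seen.

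UMIs were summed by class and library in Python 3.11.15 with scipy 1.17.1. Levels carry exact Poisson intervals and ratios exact conditional intervals. A gene counted as past 1.5-fold when its interval also left out 1, and a gene was measured when the pair of libraries held at least 30 of its UMIs. The guardians and the lists were chosen with earlier results of these data known. All 8 guardians are named. From each pathway list, the rule named up to 4 genes with the largest log2 ratio of AA to Neg and the 2 with the highest CPM, and for each guardian with at least 100 UMIs the 3 most alike genes with at least 200 UMIs. Other list genes named passed the 1.5-fold rule and were named after their values were seen. The count script was tested on simulated counts. Coordinates are those of GRCm38.p6.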

Additional observations from a re-analysis of the deposited data

How the results depend on the processing

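The 52 ratios were recomputed under the alternatives, 539 values in all: 461 stayed within the interval of the reported ratio. The sign changed in 35, of which 11 had a reported interval that left out 1, while in the other 24 that interval held 1. Counting each cell at most once and leaving out cluster 29 were chosen after seeing the data. The count of guardians past 1.5-fold in AA over Neg was 1 under all alternatives. In AA+Ab over Neg it dropped from 2 to 1, Ido1, with each cell counted at most once, and was 3 with the mean of single cells, where Il10 was higher (log2 ratio 0.73, against -0.10). In AA+Ab over AA it dropped from 1 to 0 with the mean of single cells and with classes weighted to the shares of AA. After thinning the counts were 2 and 1 again, but of Cd200 (higher) with Ido1, and of Il10 (higher). The log2 ratio of Tgfb3 in AA+Ab over Neg was -0.77, -0.65 without cluster 29 and -0.25 after thinning, and in AA+Ab over AA -0.57 to -0.87. With each cell counted at most once, the log2 ratio turned to 0.063 for Tgfb1 in AA+Ab over Neg, and for Mif to 0.42 in AA over Neg, -0.11 in AA+Ab over AA, 0.20 in the matrix and 0.53 in dendritic cells and macrophages (both AA over Neg). That count says little of Mif, which nearly every keratinocyte held. With the mean of single cells, dendritic cells and macrophages turned to 0.27 for Tgfb1 (AA+Ab over AA) and 0.52 for Mif (AA over Neg), and with cells thinned to 2000 UMIs to 0.027 and 0.12. Thinning, which left out 379, 287 and 391 cells, also turned the suprabasal AA over Neg ratios of Tgfb2 (0.41) and Cd200 (-0.76). The cause was not tested. No paired analysis was possible because each group is 1 library, and for the same reason no library could be left out. Depth limits Il10, Pomc and Ido1 most, with under 100 UMIs a library.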
